A study of Homo sapiens with 21 samples.

Results

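Notch signalling genes were followed through a pulse of the homeobox regulator GSX2 in human progenitors of the lateral ganglionic eminence (LGE) type, the embryonic source of striatal neurons. The 10 genes are the receptors NOTCH1, NOTCH2 and NOTCH3, the ligands DLL1, DLL3, DLL4, JAG1 and JAG2, and the fringe glycosyltransferases LFNG and MFNG. They were taken from the count table by gene symbol. All 10 were found among its 61268 features, and all 10 passed the filter on low counts that left 19655 features for testing.

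The cells were H9 (WA-09), a human embryonic stem cell line, and every group carried a doxycycline-inducible TRE3G transgene for wild-type GSX2 with a 2xFLAG tag. They were differentiated in Essential 6 medium with LDN193189, SB431542 and XAV939, then with LDN193189 and SB431542, and then with IWP2 and Activin A. Dox cultures received 100 ng/mL doxycycline for 12 h from day 10, and libraries were made at 12, 24 and 48 h, so that Dox cells at 24 h and 48 h had been without the drug for a time. NoDox cultures of the same times received none, and a Day 10 group is the baseline. Each of the 7 groups has 3 libraries of polyadenylated RNA. Doxycycline was never given to cells that lack the transgene, so effects of the drug and of GSX2 cannot be told apart. A single line carries the transgene in every group, and the drug, not a cell type, sets its expression. Whether the replicates came from separate cultures is not stated. The p-values therefore reflect nothing but the variation among these libraries, which may be technical.

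Notch receptors are membrane proteins that are cut when a ligand on a neighbouring cell pulls on them, and the released intracellular part joins the DNA-binding protein RBPJ to activate genes such as HES1 and HES5. In the developing forebrain, progenitors that begin to form neurons express proneural factors and Delta ligands, and Notch activity in their neighbours holds those as progenitors. Fringes add sugars to the receptors and thereby change how well Delta and Jagged ligands activate them.

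The libraries held 14.4 to 33.8 M counts. Levels are in CPM, counts relative to a library size scaled by TMM. In the smallest library, 0 counts of a gene allow up to 0.208 CPM, which is 3 counts and covers counting error only. The transgene row held 951, 932 and 745 CPM in the Dox 12 h libraries, against 0.153, 0.0457 and 0.484 CPM in the NoDox 12 h libraries. It was at 13.6 to 25.2 CPM in Dox cells at 24 h and 0.877 to 0.970 CPM at 48 h. Of 12 markers of LGE progenitors, all 12 averaged above 1 CPM in NoDox cells at 12 h, and their summed level was 690 to 726 CPM in Dox against 1656 to 1759 CPM in NoDox libraries at that time. Of the 12, 10 were lower at 12 h, and the 1 that was higher was the GSX2 row, at 288 ± 9.73 CPM in Dox against 8.62 ± 1.80 CPM in NoDox. Whether reads of the transgene were counted in this row was not tested. It held 6.28 ± 2.73 CPM in Dox against 12.7 ± 1.78 CPM in NoDox at 24 h. At 48 h it held 1.96 ± 0.0609 CPM in Dox against 11.1 ± 1.92 CPM in NoDox. The other 11 markers summed at 12 h to 400.4 to 430.0 CPM in Dox against 1645 to 1752 CPM in NoDox libraries. Replicates of a group gave chi-square values over their degrees of freedom between 1.83 and 5.45, but the pairs with Dox 12 h replicate 3 or Day 10 replicate 1 reached 10.6 to 25.3, so both libraries stood apart. The counts of Notch genes called at 12 h were the same when either was left out.

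Relative to NoDox cells of the same time, 8 of the 10 Notch genes were lower in Dox cells at 12 h, JAG2 was higher and NOTCH2 did not pass the test. Rose and fell are used below in this sense, of Dox relative to NoDox; changes against Day 10 are given separately. At 24 h, about 12 h after the end of the drug, NOTCH1, NOTCH2, DLL1, JAG1 and JAG2 were above NoDox cells, while NOTCH3, DLL3 and LFNG were below them. At 48 h only JAG1 passed the test among the 10, though NOTCH1, NOTCH2 and NOTCH3 passed under some of the alternatives given at the end. Markers of non-neural ectoderm and epithelium were higher at 24 h as well: 6 of the 7 tested rose, among them KRT18 (1.69 ± 0.11) and GRHL3 (3.20 ± 0.24), and the sum of all 9 was 378 to 488 CPM in Dox against 194 to 219 CPM in NoDox libraries. KRT5 was at 0 to 0.0452 CPM in Dox and had 0 counts in NoDox at that time. CDH1, the tested marker that was not called at 24 h, averaged 0.344 CPM in Dox and 0.148 CPM in NoDox. Such sums rest mostly on KRT8 and KRT18, which averaged 252 and 69.0 CPM in NoDox libraries at 12 h. The sum of all 9 was 312 to 340 CPM there. The part of such cells in the 24 h values was not tested. Calls are at an adjusted p below 0.05 in edgeR's quasi-likelihood F test with Benjamini-Hochberg adjustment over all 19655 features. Fold changes are log2 values of Dox over NoDox ± an approximate standard error (n = 3 per group). The 9 genes called at 12 h compare with 39.7% of all features called, 19.8% higher and 19.9% lower. The 8 called at 24 h compare with 33.9% of all features, 17.0% higher and 16.9% lower. The 1 called at 48 h compares with 18.2%, of which 9.23% were higher and 8.94% lower. The median log2 fold change of the 10 genes was −0.93 at 12 h, 0.08 at 24 h and 0.12 at 48 h, beside all-feature medians of 0.01, 0.00 and 0.01. Scaling by library totals only, without TMM, moved the all-feature median by 0.18 at 12 h, and 76.8% of calls were then higher in Dox, against 49.9% with TMM. The corresponding shares at 48 h were 26.4% and 50.8%.

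**Figure D1:**
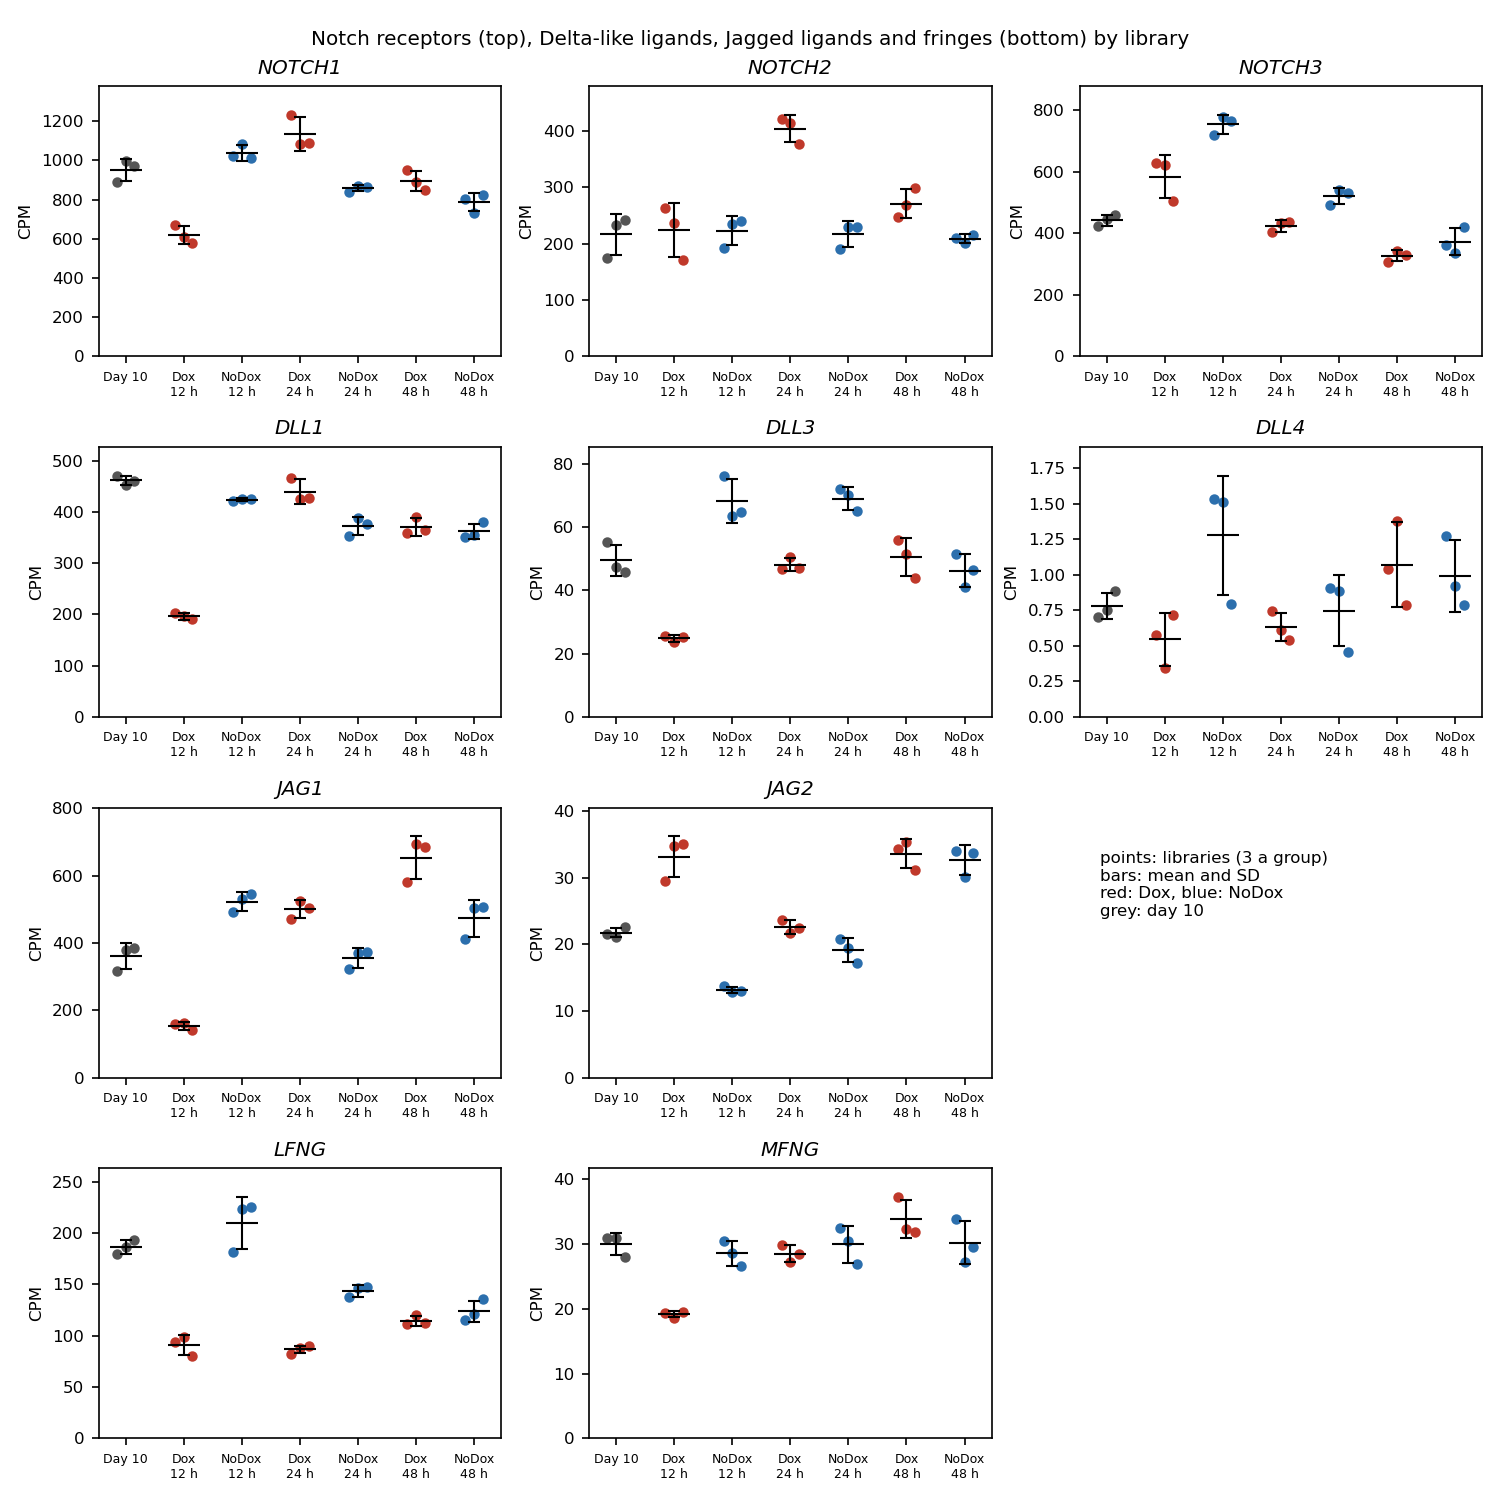
Levels of the 10 Notch genes (CPM, linear axes from 0) in each of the 21 libraries, with the mean and SD of 3 libraries per group. JAG1 is lowest in Dox 12 h libraries, at 141 to 161 CPM, where JAG2, at 29.6 to 35.0 CPM, stands above the NoDox 12 h libraries at 12.9 to 13.7 CPM.

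**Figure D2:**
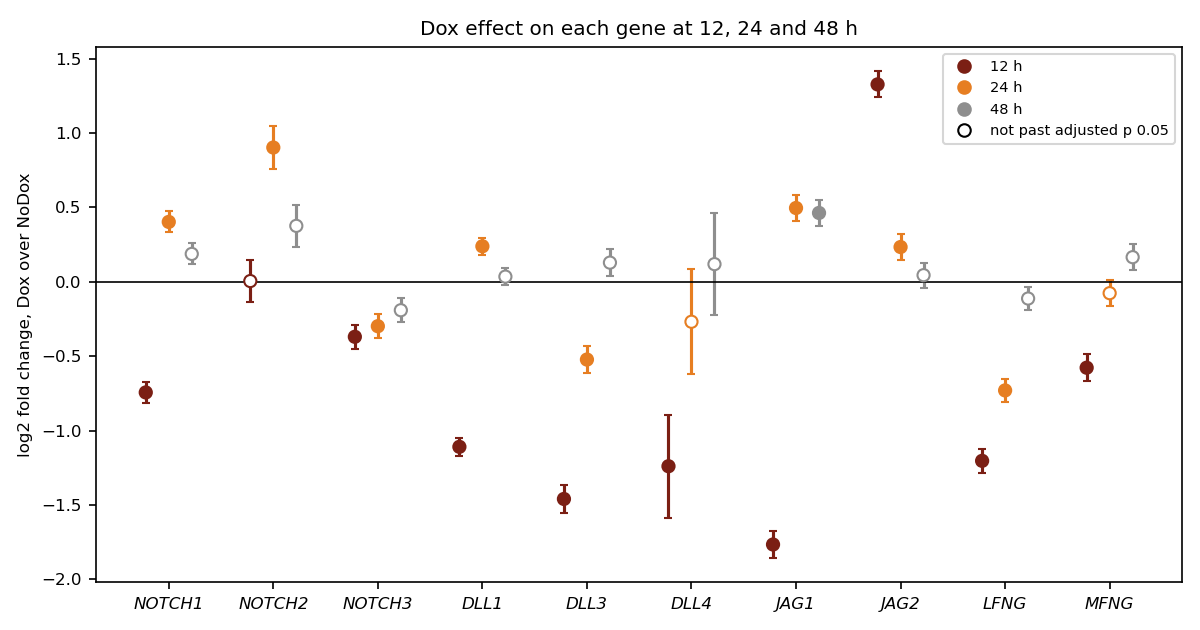
Log2 fold change of Dox over NoDox for each Notch gene at 12, 24 and 48 h, with the approximate standard error as bars; open circles did not pass an adjusted p of 0.05. JAG1 moves between −1.77 at 12 h and 0.50 at 24 h, while JAG2 has the only positive called value at 12 h, 1.33.

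The Jagged ligands moved in opposite directions at 12 h. The bases just before the transcription starts of both genes are shown here, from RefSeq (GRCh38.p14), 250 bases each, in the direction of transcription. Any link between these bases and the changes at 12 h was not tested. JAG1 (chr20:10674000-10674249, minus strand) has in capitals the letters TAAT or its reverse complement ATTA, the core letters that homeodomain proteins such as GSX2 are known to bind, which overlap here as 1 run that begins 68 bases before the start. JAG2 (chr14:105168777-105169026, minus strand) has in capitals the letters CANNTG (E-box), at 42 and 36 bases before the RefSeq start. Basic helix-loop-helix proneural factors bind this kind of site. The JAG2 gene of the counting reaches to 105168824, further upstream than the RefSeq start. Both E-box stretches therefore lie within the span of the counted gene.
JAG1: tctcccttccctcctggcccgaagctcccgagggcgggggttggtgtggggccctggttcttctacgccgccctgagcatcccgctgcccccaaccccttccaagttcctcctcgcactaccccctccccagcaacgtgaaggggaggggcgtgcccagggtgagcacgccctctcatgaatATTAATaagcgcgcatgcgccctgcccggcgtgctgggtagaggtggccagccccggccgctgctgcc
JAG2: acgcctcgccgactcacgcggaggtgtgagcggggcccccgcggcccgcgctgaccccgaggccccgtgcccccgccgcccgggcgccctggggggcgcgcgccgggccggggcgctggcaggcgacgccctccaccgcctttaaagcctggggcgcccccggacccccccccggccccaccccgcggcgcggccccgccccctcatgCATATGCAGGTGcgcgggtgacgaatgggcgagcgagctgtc
Both strands were searched for TAAT, for the E-box letters CANNTG and for the RBPJ core TGGGAA. The 7 Notch genes with a window in the table have 8 windows, as LFNG has 2, and they are counted here per gene. Of the 7, 1 held TAAT (JAG1), 2 held CANNTG (JAG2 and LFNG) and 1 held TGGGAA (LFNG). TGGGAA was only in the second LFNG window (chr7:2517613-2517862), which lies within the span of the counted gene. The NOTCH2 window (chr1:120069663-120069912) lies within the span of its counted gene too. Among all 35116 windows of this length, 47.4% held TAAT, 61.8% held CANNTG and 20.8% held TGGGAA. Base composition differs as well, at 68.4% GC for JAG1 and 81.6% GC for JAG2, beside a median of 58.0% over all windows. A match of letters is a description and not a binding site, and none of DLL1, DLL3 and MFNG has a window in the table.

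JAG1 encodes the Jagged ligand that progenitor cells themselves often carry. It lies on chromosome 20 (hg38, 10637684 to 10673999, minus strand). Its levels at 12 h were 159, 161 and 141 CPM in Dox libraries, against 492, 532 and 544 CPM in NoDox libraries. Every Dox library was below every NoDox library, and the mean was 3.40-fold lower in Dox, a log2 fold change of −1.77 ± 0.09 (edgeR adjusted p = 4.05e-15). At 24 h the order was the other way round, with 471, 525 and 505 CPM in Dox libraries against 321, 370 and 373 CPM in NoDox libraries. The groups did not overlap (0.50 ± 0.09, edgeR adjusted p = 5.94e-05). The same held at 48 h, with 580, 694 and 686 CPM in Dox libraries against 410, 503 and 508 CPM in NoDox libraries (0.46 ± 0.09, edgeR adjusted p = 0.000433). JAG1 had the widest range of the 10 genes, 4.25-fold between its highest group mean (Dox 48 h) and its lowest (Dox 12 h).

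JAG2, the second Jagged ligand, lies on chromosome 14 (hg38, 105140982 to 105168824, minus strand). At 12 h it was at 29.6, 34.8 and 35.0 CPM in Dox libraries, against 13.7, 12.9 and 13.0 CPM in NoDox libraries. The groups were far apart, and the mean was 2.51-fold higher in Dox (1.33 ± 0.09, edgeR adjusted p = 3.45e-13). At 24 h JAG2 was at 23.7, 21.7 and 22.5 CPM in Dox libraries and 20.8, 19.4 and 17.3 CPM in NoDox libraries. These groups did not overlap, and the difference passed the test (0.23 ± 0.09, edgeR adjusted p = 0.0331). The call at 24 h was lost without the filter on low counts (0.24) and without any of 4 libraries: Dox replicate 1 (0.20) or 3 (0.24), or NoDox replicate 2 (0.24) or 3 (0.17). At 48 h the means were 33.6 ± 2.16 CPM in Dox and 32.6 ± 2.22 CPM in NoDox (SD, n = 3 each), with overlapping libraries (edgeR adjusted p = 0.763). JAG2 shares 469 exon bases on the same strand with ENSG00000257622, which averaged 32.7 counts a library beside 542 for JAG2, so a small part of its reads is uncertain. The ratio of JAG1 to JAG2 levels in CPM per kb of exon was 3.22 ± 0.464 in Dox 12 h libraries and 27.3 ± 2.30 in NoDox 12 h libraries, and 15.2 ± 1.49 in Dox and 12.9 ± 2.14 in NoDox libraries at 24 h (SD, n = 3 each).

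The 3 Delta-like ligands all fell at 12 h. DLL1, a Delta ligand that newly forming neurons present to their neighbours, lies on chromosome 6 (hg38, 170282206 to 170306565, minus strand). It was at 203, 196 and 190 CPM in Dox libraries, against 421, 425 and 425 CPM in NoDox libraries at 12 h. The groups were wide apart relative to their spread, and the mean was 2.16-fold lower in Dox (−1.11 ± 0.06, edgeR adjusted p = 2.55e-15). By 24 h DLL1 was above NoDox, at 467, 425 and 426 CPM in Dox libraries against 353, 388 and 375 CPM in NoDox libraries (0.24 ± 0.06, edgeR adjusted p = 0.0018). Its Day 10 libraries averaged 461 ± 8.74 CPM, beside 439 ± 23.9 CPM in Dox and 372 ± 17.6 CPM in NoDox at 24 h. Dox at 24 h was thus not above Day 10. At 48 h the groups overlapped, at 371 ± 17.0 CPM in Dox and 362 ± 15.4 CPM in NoDox (edgeR adjusted p = 0.732). DLL1 shares 370 exon bases with FAM120B on the opposite strand, a gene with a mean of 953 counts a library beside 8090 for DLL1. The strand setting of the counting is not given, so reads in that stretch could belong to either gene.

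DLL3, an atypical Delta-like protein known to act inside the cell that makes it, lies on chromosome 19 (hg38, 39498895 to 39508481, plus strand). Its 12 h levels were 25.6, 23.5 and 25.2 CPM in Dox libraries, against 76.3, 63.4 and 64.9 CPM in NoDox libraries. No library of one group came near the other (−1.46 ± 0.09, edgeR adjusted p = 1.52e-13). DLL3 was still lower at 24 h, with 46.8, 50.6 and 46.9 CPM in Dox against 71.9, 70.2 and 65.1 CPM in NoDox libraries, again without overlap (−0.52 ± 0.09, edgeR adjusted p = 2.39e-05). At 48 h it averaged 50.5 ± 6.05 CPM in Dox and 46.2 ± 5.14 CPM in NoDox, with overlap (edgeR adjusted p = 0.353). Markers of postmitotic neurons moved in the same comparisons: their summed level (8 genes, all above 1 CPM in every group) was 961 to 1154 CPM in Dox against 1694 to 1970 CPM in NoDox libraries at 12 h, and 1470 to 1671 CPM against 2071 to 2359 CPM at 24 h. At 48 h it was 2170 to 2410 CPM in Dox and 2003 to 2394 CPM in NoDox libraries. Of the 8 markers, 7 were lower and 1 was higher at 12 h (RBFOX3, 0.73 ± 0.17), and 6 were lower and 1 higher at 24 h. At 48 h 1 was higher (DCX, 0.55 ± 0.13) and 7 were not called. The part of these cells in the results was not tested, and in bulk RNA fewer cells of a type and less RNA per cell cannot be told apart.

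DLL4, the Delta ligand best known from blood vessels, lies on chromosome 15 (hg38, 40929340 to 40939073, plus strand) and had only 9 to 33 counts a library. At 12 h it was at 0.572, 0.346 and 0.714 CPM in Dox libraries and 1.53, 1.51 and 0.791 CPM in NoDox libraries. The highest Dox library was close to the lowest NoDox library, but they did not overlap (−1.24 ± 0.35, edgeR adjusted p = 0.0048). DLL4 passed no other test in the series, with a log2 fold change of −0.27 ± 0.35 at 24 h (edgeR adjusted p = 0.607) and 0.12 ± 0.34 at 48 h (edgeR adjusted p = 0.852). The summed level of 10 endothelial markers was 42.8 to 53.2 CPM in Dox against 10.1 to 11.0 CPM in NoDox libraries at 24 h, with KDR at a mean of 37.9 CPM in Dox. EMCN had 0 counts in both groups at that time, and PECAM1 averaged 0.244 CPM in Dox and 0.159 CPM in NoDox. Of the 7 endothelial markers tested, 3 were higher and 4 were not called at 24 h. At 12 h, where DLL4 fell, the sum was 13.5 to 17.8 CPM in Dox and 13.8 to 15.7 CPM in NoDox libraries. At that time 1 was higher (KDR, 0.95 ± 0.25), 1 was lower (TEK, −0.77 ± 0.24) and 5 were not called. The part of such cells in the DLL4 values was not tested.

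Each receptor had its own course. NOTCH1, the main receptor of many neural progenitors, lies on chromosome 9 (hg38, 136494433 to 136546048, minus strand). After 12 h it was at 671, 610 and 579 CPM in Dox libraries, against 1021, 1084 and 1010 CPM in NoDox libraries. All Dox libraries were lower (−0.74 ± 0.07, edgeR adjusted p = 8.41e-10). At 24 h all were higher, at 1232, 1083 and 1088 CPM in Dox against 840, 871 and 863 CPM in NoDox libraries (0.40 ± 0.07, edgeR adjusted p = 3.56e-05). At 48 h the libraries still did not overlap, at 951, 890 and 849 CPM in Dox and 804, 734 and 824 CPM in NoDox, but the difference missed the threshold (0.19 ± 0.07, edgeR adjusted p = 0.061).

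NOTCH2 alone of the 10 genes did not pass the test at 12 h. It lies on chromosome 1 (hg38, 119911553 to 120100779, minus strand), and the human NOTCH2NL genes are its partial copies, so that reads could be shared between them and its values are uncertain to that extent. At 12 h it was at 264, 236 and 170 CPM in Dox libraries and 193, 235 and 241 CPM in NoDox libraries, which overlapped (0.01 ± 0.14, edgeR adjusted p = 0.979). At 24 h it was at 422, 414 and 376 CPM in Dox libraries, against 190, 230 and 229 CPM in NoDox libraries. The mean was 1.87-fold higher in Dox, with no overlap (0.90 ± 0.14, edgeR adjusted p = 6.08e-05). At 48 h it was at 247, 268 and 298 CPM in Dox and 210, 200 and 216 CPM in NoDox libraries. These were apart but missed the threshold in the fit of all groups (0.38 ± 0.14, edgeR adjusted p = 0.076). The difference passed with the DESeq2 Wald test (DESeq2 adjusted p = 0.0254) and limma on the deposited values (limma adjusted p = 0.0409). It also passed with only the groups compared (edgeR adjusted p = 1.61e-05), but not under the other alternatives. Of the 4 NOTCH2NL genes counted, none was called at 12 h, 2 rose at 24 h (NOTCH2NLA, 0.68 ± 0.26, and NOTCH2NLC, 0.50 ± 0.13) and 3 rose at 48 h (NOTCH2NLA, 0.79 ± 0.27, NOTCH2NLC, 0.75 ± 0.14, and NOTCH2NLR, 0.96 ± 0.24). Their group means in these comparisons were 1.30 to 10.8 CPM, far under those of NOTCH2.

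NOTCH3, a receptor found in neural progenitors and in vessel wall cells, lies on chromosome 19 (hg38, 15159038 to 15200995, minus strand). At 12 h it was at 627, 620 and 503 CPM in Dox libraries, against 719, 777 and 765 CPM in NoDox libraries. The groups did not overlap, with replicate 3 of Dox lowest (−0.37 ± 0.08, edgeR adjusted p = 0.000405). That call was lost with scaling by library totals only (−0.19). At 24 h it was at 402, 433 and 436 CPM in Dox libraries and 491, 542 and 530 CPM in NoDox libraries (−0.30 ± 0.08, edgeR adjusted p = 0.00402). At 48 h the libraries overlapped, with means of 326 ± 18.4 CPM in Dox and 372 ± 43.6 CPM in NoDox (−0.19 ± 0.08, edgeR adjusted p = 0.0987). The summed level of 8 mesenchymal and mural markers was 971 to 1360 CPM in Dox against 1421 to 1580 CPM in NoDox libraries at 12 h, and 1564 to 2041 CPM in Dox against 1089 to 1241 CPM in NoDox libraries at 24 h. COL1A1 and COL1A2 made up most of these sums. Of the 7 markers tested, 2 were higher (CSPG4, 1.78 ± 0.12, and PDGFRB, 0.61 ± 0.10) and 3 lower (COL1A2, −0.96 ± 0.07, RGS5, −0.69 ± 0.11, and LUM, −1.07 ± 0.29) at 12 h. At 24 h 2 were higher (COL1A1, 1.42 ± 0.17, and CSPG4, 0.93 ± 0.12) and 1 lower (LUM, −1.69 ± 0.28). DCN had 0 counts in both groups at 24 h. The part of these markers' cells in the NOTCH3 values was not tested.

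Both fringes fell at 12 h. LFNG, the fringe best known from the segmentation of the body axis, lies on chromosome 7 (hg38, 2512529 to 2529177, plus strand). It was at 94.2, 99.0 and 79.9 CPM in Dox libraries, against 181, 223 and 225 CPM in NoDox libraries at 12 h. The mean was 2.30-fold lower in Dox, with no overlap (−1.20 ± 0.08, edgeR adjusted p = 3.74e-13). At 24 h it was at 82.4, 88.0 and 89.5 CPM in Dox libraries and 137, 146 and 148 CPM in NoDox libraries, again apart (−0.73 ± 0.08, edgeR adjusted p = 1.80e-08). By 48 h the libraries overlapped, at 114 ± 4.65 CPM in Dox and 124 ± 10.5 CPM in NoDox (edgeR adjusted p = 0.358). MFNG, a fringe of the same family, lies on chromosome 22 (hg38, 37469063 to 37486393, minus strand). At 12 h it was at 19.4, 18.6 and 19.4 CPM in Dox libraries, against 30.5, 28.6 and 26.6 CPM in NoDox libraries. These did not overlap (−0.58 ± 0.09, edgeR adjusted p = 5.26e-06). Its means at 24 h were 28.5 ± 1.32 CPM in Dox and 29.9 ± 2.84 CPM in NoDox (edgeR adjusted p = 0.542), and at 48 h 33.8 ± 2.94 CPM in Dox and 30.2 ± 3.34 CPM in NoDox (edgeR adjusted p = 0.2).

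The change of the Dox effect between times was tested as a difference of log2 fold changes. Between 12 h and 24 h, 8 of the 10 genes shifted, 7 upward and 1 downward. Over all features 30.9% were called, 16.1% upward and 14.8% downward. JAG1 shifted furthest, by 2.26 ± 0.13 (edgeR adjusted p = 6.68e-14), then DLL1 by 1.35 ± 0.08 (edgeR adjusted p = 1.77e-13) and NOTCH1 by 1.15 ± 0.10 (edgeR adjusted p = 2.70e-10). For these 3 genes the sign of the effect turned, with both effects past the threshold. DLL3 shifted by 0.94 ± 0.13 (edgeR adjusted p = 1.21e-06), NOTCH2 by 0.90 ± 0.20 (edgeR adjusted p = 0.00207), MFNG by 0.50 ± 0.12 (edgeR adjusted p = 0.00236) and LFNG by 0.47 ± 0.11 (edgeR adjusted p = 0.00156). The LFNG call was lost with scaling by library totals only (0.28). JAG2 shifted by −1.09 ± 0.12 (edgeR adjusted p = 4.06e-08). NOTCH3 had a shift of 0.07 ± 0.11 (edgeR adjusted p = 0.681) and DLL4 one of 0.97 ± 0.50 (edgeR adjusted p = 0.145). With library totals the all-feature median moved by −0.19, and the share of upward calls over all features was 25.1%, against 52.0% with TMM.

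Between 24 h and 48 h only DLL3, by 0.65 ± 0.13 (edgeR adjusted p = 0.000307), and LFNG, by 0.62 ± 0.11 (edgeR adjusted p = 0.000141), shifted among the 10 genes. Over all features 25.8% were called, 12.7% upward and 13.1% downward. Both genes were below NoDox at 24 h and not past the threshold at 48 h. For JAG1 the 2 effects differed by −0.03 ± 0.12 (edgeR adjusted p = 0.88). The estimate for NOTCH2 was −0.53 ± 0.20 (edgeR adjusted p = 0.0619). Scaled by library totals only, 37.2% of calls over all features were upward, against 49.2% with TMM.

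Levels of different genes can be compared only per length, here as CPM per kilobase of exon. At Day 10 DLL1 had the highest level, 121 ± 2.29 CPM per kb, followed by NOTCH1 (76.0 ± 4.49), LFNG (54.1 ± 1.96), NOTCH3 (47.0 ± 1.93), JAG1 (38.9 ± 4.07), DLL3 (18.9 ± 1.91), NOTCH2 (13.0 ± 2.17), MFNG (9.87 ± 0.564), JAG2 (3.40 ± 0.110) and DLL4 (0.164 ± 0.0197 CPM per kb, SD, n = 3 each). No neighbours in that order overlapped in their libraries. DLL1 was first in every group except Dox 12 h, where NOTCH3 led at 62.0 ± 7.39 CPM per kb. There DLL1 (51.4 ± 1.73 CPM per kb) and NOTCH1 (49.5 ± 3.73 CPM per kb) overlapped, as did JAG1 (16.5 ± 1.19 CPM per kb) and NOTCH2 (13.3 ± 2.88 CPM per kb). In NoDox 12 h libraries NOTCH1 overlapped NOTCH3, and LFNG overlapped JAG1. DLL4 was last in all 7 groups.

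At 48 h JAG1 came next to NOTCH1 in Dox libraries, at 70.3 ± 6.81 CPM per kb beside 71.6 ± 4.09 CPM per kb, and their libraries overlapped. In NoDox 48 h libraries JAG1 was at 51.0 ± 5.91 CPM per kb, below NOTCH1 at 62.8 ± 3.79 CPM per kb, without overlap. NOTCH3 and LFNG overlapped in both groups at 48 h, and LFNG and NOTCH2 overlapped in Dox 24 h libraries.

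Summed over the 5 ligands, the level was 82.7 ± 2.37 CPM per kb in Dox against 196 ± 1.17 CPM per kb in NoDox libraries at 12 h. It was 191 ± 3.62 CPM per kb in Dox against 165 ± 6.77 CPM per kb in NoDox at 24 h, and 192 ± 9.61 CPM per kb in Dox against 169 ± 8.01 CPM per kb in NoDox at 48 h (SD, n = 3 each). Over the 3 receptors the sum was 125 ± 13.5 CPM per kb in Dox and 176 ± 6.84 CPM per kb in NoDox at 12 h, 160 ± 5.76 CPM per kb in Dox and 137 ± 5.39 CPM per kb in NoDox at 24 h, and 122 ± 1.67 CPM per kb in Dox and 115 ± 8.59 CPM per kb in NoDox at 48 h. The ligand sums did not overlap between Dox and NoDox at any of the 3 times, and the receptor sums did not at 12 h and 24 h. These sums are descriptions without a test.

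The make-up within each family moved too. JAG2 made up 6.27 ± 0.726% of the ligand sum in Dox and 1.05 ± 0.0401% in NoDox libraries at 12 h, while JAG1 made up 20.0 ± 0.974% in Dox and 28.7 ± 1.38% in NoDox. At 24 h DLL3 was at 9.63 ± 0.482% of the ligand sum in Dox and 16.0 ± 1.25% in NoDox. At 48 h JAG1 was at 36.5 ± 2.29% in Dox and 30.2 ± 2.50% in NoDox, and DLL1 at 50.5 ± 0.625% in Dox and 56.2 ± 0.740% in NoDox. Among receptors at 12 h, NOTCH1 held 39.8 ± 2.16% of the sum in Dox and 47.0 ± 1.21% in NoDox. NOTCH3 held 49.6 ± 1.39% in Dox and 45.5 ± 0.593% in NoDox, so that its level was the highest of the 3 in Dox cells. At 24 h NOTCH1 held 56.6 ± 2.20% in Dox and 50.1 ± 1.09% in NoDox, and NOTCH2 held 15.1 ± 0.648% in Dox and 9.43 ± 0.652% in NoDox.

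**Figure D3:**
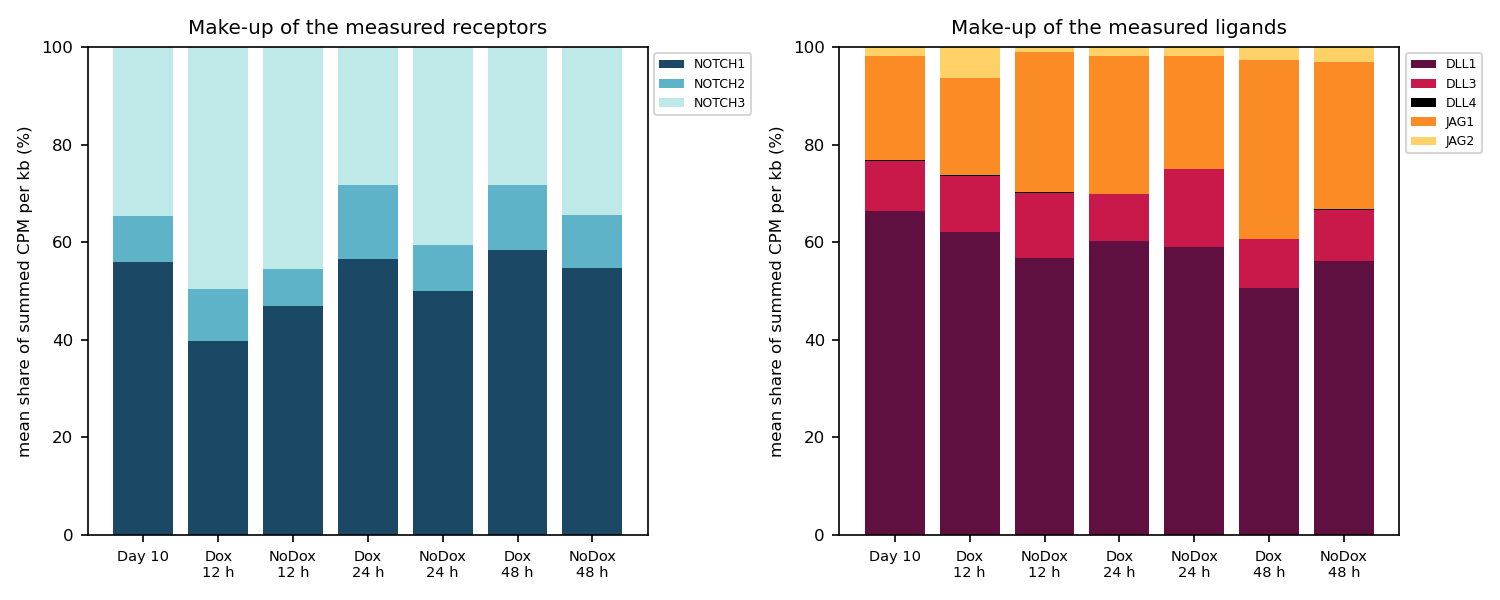
Mean share of each gene in the summed level (CPM per kb) of the 3 receptors (left) and the 5 ligands (right) in each group of 3 libraries, as stacked bars from 0 to 100%. NOTCH3 has its largest share in Dox 12 h libraries (49.6%) and JAG2 likewise (6.27%), while JAG1 has its largest share in Dox 48 h libraries (36.5%).

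Uninduced cells changed as well over the same times. NoDox at 12 h was set against Day 10 with 31.8% of all features called (15.5% higher, 16.3% lower), and 4 Notch genes were called. NOTCH3 (0.77 ± 0.08, edgeR adjusted p = 2.35e-08), JAG1 (0.53 ± 0.09, edgeR adjusted p = 4.02e-05) and DLL3 (0.47 ± 0.09, edgeR adjusted p = 0.000186) were higher, and JAG2 was lower (−0.72 ± 0.09, edgeR adjusted p = 5.67e-07). NOTCH3 averaged 754 ± 30.6 CPM in NoDox 12 h and 442 ± 18.2 CPM in Day 10 libraries. JAG2 averaged 13.2 ± 0.451 CPM in NoDox 12 h and 21.8 ± 0.703 CPM in Day 10 libraries.

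At 24 h 17.3% of features were called between NoDox and Day 10 (8.84% higher, 8.47% lower), and again 4 Notch genes. DLL3 was higher (0.49 ± 0.09, edgeR adjusted p = 0.00027), as was NOTCH3 (0.24 ± 0.08, edgeR adjusted p = 0.039). LFNG (−0.38 ± 0.08, edgeR adjusted p = 0.00113) and DLL1 (−0.31 ± 0.06, edgeR adjusted p = 0.0004) were lower. The NOTCH3 call was lost without Day 10 replicate 1 (0.20) or 2 (0.24), or NoDox 24 h replicate 2 (0.21) or 3 (0.22). At 48 h 41.7% of features (21.4% higher, 20.2% lower) and 6 Notch genes were called. JAG2 (0.58 ± 0.09, edgeR adjusted p = 3.17e-06) and JAG1 (0.39 ± 0.09, edgeR adjusted p = 0.000822) were higher, and LFNG (−0.59 ± 0.08, edgeR adjusted p = 8.15e-07), DLL1 (−0.35 ± 0.06, edgeR adjusted p = 2.04e-05), NOTCH1 (−0.28 ± 0.07, edgeR adjusted p = 0.00222) and NOTCH3 (−0.25 ± 0.08, edgeR adjusted p = 0.0128) were lower. The NOTCH3 call at 48 h was lost without Day 10 replicate 3 (−0.22), NoDox 48 h replicate 1 (−0.23) or NoDox 48 h replicate 2 (−0.18). With library totals only, 38.0% of all calls at 48 h were higher, against 51.5% with TMM.

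Dox cells were also set against Day 10; these comparisons share the Dox libraries with those above and the Day 10 libraries with each other. At 12 h 48.5% of features were called (24.5% higher, 24.0% lower), and 8 Notch genes, 2 higher and 6 lower. JAG2 averaged 33.1 ± 3.08 CPM in Dox 12 h and 21.8 ± 0.703 CPM in Day 10 libraries (0.60 ± 0.08, edgeR adjusted p = 8.97e-07), and NOTCH3 584 ± 69.6 CPM in Dox 12 h and 442 ± 18.2 CPM in Day 10 libraries (0.40 ± 0.08, edgeR adjusted p = 0.000134). NOTCH3 at 12 h was thus above Day 10 and below NoDox. JAG1 (−1.23 ± 0.09), DLL1 (−1.23 ± 0.06), LFNG (−1.03 ± 0.08), DLL3 (−0.99 ± 0.09), MFNG (−0.64 ± 0.09) and NOTCH1 (−0.62 ± 0.07) were lower in Dox than at Day 10. At 24 h 37.3% of features (18.4% higher, 19.0% lower) and 4 Notch genes were called. NOTCH2 (0.90 ± 0.14), JAG1 (0.47 ± 0.09) and NOTCH1 (0.25 ± 0.07) were higher and LFNG (−1.10 ± 0.08) lower. The NOTCH1 call was lost without Dox 24 h replicate 1 (0.19).

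In Dox cells at 48 h against Day 10, 55.2% of features were called (28.2% higher, 27.0% lower), and 5 Notch genes. JAG1 averaged 653 ± 63.3 CPM in Dox 48 h and 361 ± 37.8 CPM in Day 10 libraries (0.85 ± 0.09, edgeR adjusted p = 6.70e-09). JAG2 was also higher (0.63 ± 0.09), and LFNG (−0.70 ± 0.08), NOTCH3 (−0.44 ± 0.08) and DLL1 (−0.32 ± 0.06) were lower. With library totals only, the all-feature median against Day 10 moved by 0.18 at 12 h and −0.16 at 48 h. The share of calls that were higher was then 73.0% at 12 h, against 50.5% with TMM, and 34.4% at 48 h, against 51.2% with TMM.

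Of 55 further genes of the pathway in 7 lists, 18 were higher and 20 lower in Dox at 12 h (69.1%), 15 and 15 at 24 h (54.5%), and 11 and 9 at 48 h (36.4%). Over all features 39.7%, 33.9% and 18.2% were called at 12, 24 and 48 h. The counts of each list below are to be read beside these shares. The median log2 fold changes of the 55 genes were −0.03, 0.05 and 0.06 at 12, 24 and 48 h. All 5 other receptors and ligands changed at 12 h. NOTCH4 (−0.39 ± 0.13), DLK1 (−0.80 ± 0.09), a Delta-like inhibitor, and DNER (−0.45 ± 0.14) fell, and DLK2 (0.84 ± 0.31) and EGFL7 (1.09 ± 0.10) rose. At 24 h NOTCH4 (0.38 ± 0.13) and DLK1 (0.54 ± 0.08) were higher, and DNER was lower (−1.39 ± 0.13), at a mean of 16.9 CPM in Dox and 44.2 CPM in NoDox. DLK2 was lower at 24 h (−0.84 ± 0.32).

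Of 7 enzymes that glycosylate Notch, 4 rose and 1 fell at 12 h, beside 19.8% higher and 19.9% lower over all features. EOGT (0.81 ± 0.17) and POGLUT1 (0.52 ± 0.10), which add sugars to the extracellular repeats of the receptor, rose, as did GXYLT2 (1.37 ± 0.39) at a mean of only 1.16 CPM in Dox. GXYLT1 fell (−0.39 ± 0.08), and RFNG, the third fringe, had −0.03 ± 0.06 (edgeR adjusted p = 0.74), unlike LFNG and MFNG in whether it passed the test; the difference between the genes was not tested. At 48 h RFNG was higher (0.26 ± 0.06). Of 7 genes of ligand endocytosis, 3 rose and 3 fell at 12 h, among them NEURL1 (1.15 ± 0.15) and MIB1 (−0.38 ± 0.10), ubiquitin ligases that act on Notch ligands. Of 9 genes of receptor cleavage, 6 passed no test at 12 h, including the protease ADAM10 (−0.02 ± 0.06, edgeR adjusted p = 0.801). APH1B, a gamma-secretase subunit, fell at 12 h (−0.43 ± 0.08) and 24 h (−0.97 ± 0.08), and PSEN2 rose at both (0.41 ± 0.13 and 0.75 ± 0.14) but was lower at 48 h (−0.57 ± 0.16). NEURL1 was lower at 48 h too (−0.56 ± 0.16).

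In the nuclear complex 1 of 10 genes rose and 5 fell at 12 h. MAML2 (−0.92 ± 0.14) and MAML3 (−0.60 ± 0.09), coactivators of the Notch complex, fell, as did the acetyltransferase KAT2B (−0.87 ± 0.08) and the corepressor SPEN (−0.65 ± 0.14), while the deacetylase HDAC1 rose (0.57 ± 0.05). At 24 h MAML2 (0.42 ± 0.13) and MAML3 (0.76 ± 0.08) were higher. RBPJ fell at 12 h (−0.22 ± 0.06) and was higher at 48 h (0.36 ± 0.06). Of 10 inhibitors, 4 rose and 4 fell at 12 h. NRARP, itself a Notch target and inhibitor, averaged 135 CPM in Dox and 372 CPM in NoDox (−1.46 ± 0.07), and DTX4 fell (−1.02 ± 0.09), while CHAC1 (1.21 ± 0.15) and DTX1 (0.99 ± 0.11) rose. DTX4 was higher at 24 h (0.70 ± 0.09) and 48 h (0.45 ± 0.09), and CHAC1 lower at both (−0.59 ± 0.20 and −1.08 ± 0.23).

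Of 7 canonical targets, 2 rose, 3 fell and 2 passed no test at 12 h. HES5 (−0.76 ± 0.08), HES4 (−0.88 ± 0.09) and the radial glia gene FABP7 (−1.17 ± 0.13) fell. HEY1 (0.51 ± 0.07) and HEYL (0.77 ± 0.15) rose, and HES1 had −0.13 ± 0.11 (edgeR adjusted p = 0.38). At 24 h 4 rose and 2 fell. HEY1 averaged 144 CPM in Dox and 24.7 CPM in NoDox (2.54 ± 0.08, edgeR adjusted p = 1.71e-20), and HES1 was higher (0.62 ± 0.11), while HES5 was still lower (−0.56 ± 0.08). At 48 h HEY1 (1.24 ± 0.08) and FABP7 (0.57 ± 0.13) were higher. All 8 proneural and Delta-linked genes fell at 12 h. NEUROG1 averaged 0.465 CPM in Dox and 21.7 CPM in NoDox (−5.46 ± 0.20). INSM1 (−3.00 ± 0.10) and NEUROG2 (−3.55 ± 0.64, at most 0.698 CPM in a group of that comparison) fell too. At 24 h 7 of the 8 were still lower, and at 48 h 4 were lower and 1, MYT1 (0.56 ± 0.14), was higher.

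**Figure D4:**
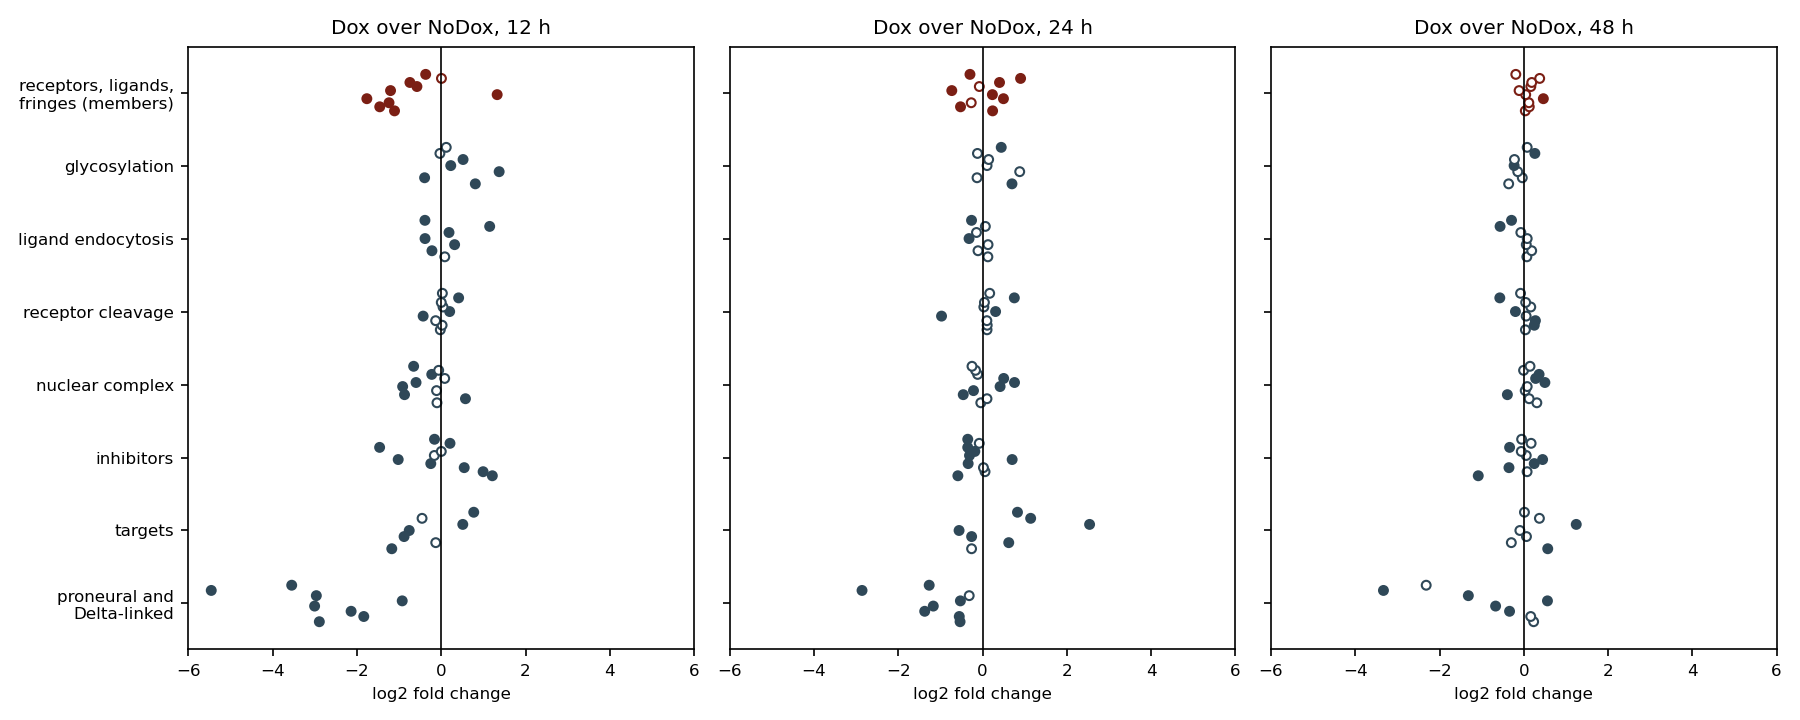
Log2 fold change of Dox over NoDox at 12, 24 and 48 h for the 10 Notch genes (red) and for listed genes of the pathway (dark), 1 point per gene; filled points passed an adjusted p of 0.05. Proneural and Delta-linked genes reach −5.46 at 12 h, and HEY1 is the target at 2.54 at 24 h.

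The genes whose levels most resembled each Notch gene over the 21 libraries were found by Pearson's r of log2(CPM + 0.5), among 13625 tested genes that averaged 2 CPM or more. Genes with clone-style names, such as those that begin with ENSG, and the transgene row were left out of this search. These libraries share groups, depth and a common treatment, so r is a description. DLL1 was nearest to LRIG1 (r = 0.970), SP8 (0.969) and ZNF521 (0.968). JAG1 was nearest to MYC (0.955), EFNA5 (0.952) and PDE4D (0.951), and JAG2 to CACNA1I (0.964), PNKD (0.948) and KIAA1522 (0.946). DLL3 was nearest to GADD45G (0.955), ISL1 (0.947) and DERL3 (0.926), and MFNG to TTYH1 (0.949), NNAT (0.946) and SOX4 (0.937).

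For the receptors, NOTCH1 was nearest to PKDCC (0.943), SEMA6A (0.940) and ZNF521 (0.927), NOTCH2 to ABCC1 (0.966), SMAD3 (0.949) and LRP4 (0.939), and NOTCH3 to HHIPL1 (0.962), ADAMTS16-DT (0.946) and NETO2 (0.939). LFNG was nearest to MAPK4 (0.956), ORC1 (0.942) and SNN (0.938). DLL4, with its few counts, had no gene above CHN1 (0.780), with GREM1 next (0.722). Among the 10 Notch genes the highest r was that of NOTCH1 with DLL1 (0.883) and the lowest that of NOTCH3 with JAG2 (−0.687).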

How the data were processed

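Read counts per gene on hg38 were deposited by the authors. STAR 2.7.9 and Subread 2.0.3 are among their tools, per the submitters' processing notes. Annotation and strandedness of counting: not given in the sources used here. A second deposited table holds a normalized signal for 19874 features, each value being the count divided by a factor common to its sample. DESeq2 is also named there without a version. This table entered 1 alternative, as log2(value + 1).

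Groups were taken from the labels. All 7 groups (21 libraries) were fitted together with edgeR 4.0.16 (R 4.3.3), using TMM scaling, filterByExpr, robust quasi-likelihood F tests and Benjamini-Hochberg adjustment over 19655 features (99.92% of counts) at adjusted p below 0.05. The 11 comparisons had 14 residual degrees of freedom, and the biological coefficient of variation was 7.24%. The ± of a fold change is |log2 fold change| divided by the root of F. CPM per kb, used in place of TPM, is CPM over the exon length in the count table. The procedure was tested on simulated counts of 19166 genes, with 100 genes changed by a log2 fold change of 1 and 100 by 2 in Dox 12 h. It recovered 99% and 100% of them, with 13 false calls. Far fewer genes were changed there than were called at 12 h in the real libraries, so this check does not cover the choice of scaling.

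Alternatives were DESeq2 1.42.0 (Wald test; size factors), library totals only, no filter, limma 3.58.1 on the deposited normalized table, a fit of the compared groups alone, a replicate block, and each replicate left out. The 10 genes, the lists and the tests were chosen with earlier results of these data known. Each of the 10 genes is named in every comparison that calls it. Of each pathway list, up to 4 genes with the largest called change per Dox comparison could be named, and others by their values. For each Notch gene the 3 genes of highest r are named. Some genes that these rules take are not reported here. Promoter windows are from RefSeq.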

Additional observations from a re-analysis of the deposited data

Results flagged for a closer look

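The effect of doxycycline differed between 12 h and 24 h, by a test of the difference itself, for 8 Notch genes. The difference of log2 fold changes was 2.26 for JAG1, 1.35 for DLL1, 1.15 for NOTCH1, 0.94 for DLL3, 0.90 for NOTCH2, 0.50 for MFNG, 0.47 for LFNG and −1.09 for JAG2. Between 24 h and 48 h it differed for DLL3 (0.65) and LFNG (0.62). Groups of 3 libraries are too small for the check of single libraries far from the others.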

How the results depend on the processing

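Of 110 results on single Notch genes (10 genes in 11 comparisons), 94 kept their side of the threshold under every alternative, and 16 changed it under at least 1. No value called in either fit changed its sign. Over all alternatives 1508 values kept their side, 27 passed the threshold in the alternative alone and 15 calls were lost in it. DESeq2 size factors changed none of the 110 calls. At 48 h of Dox against NoDox the count of Notch genes called, 1, was 2 with library totals only, 3 with no filter, 4 with only the groups compared, 3 with the DESeq2 Wald test and 2 with limma on the deposited values. NOTCH1, NOTCH2 and NOTCH3 were the genes added. For the difference between the effects at 48 h and 24 h the count, 2, was 4 with library totals, 5 with only the groups compared and 4 with the DESeq2 Wald test; the genes added were among NOTCH1, NOTCH2 and DLL1. The cause was not tested.

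With each replicate left out in turn, the count of Notch genes called at 48 h of Dox against NoDox was 1 to 2, with 2 without NoDox 48 h replicate 2. All features called ranged from 2277 to 3320, against 3571, and were fewest without NoDox 48 h replicate 2 (2277) and Dox 48 h replicate 1 (2325). Between NoDox 24 h and Day 10 they ranged from 2078 to 3064, against 3402, and were fewest without NoDox 24 h replicate 1 (2078). Replicate numbers were not treated as pairs. In no comparison were all 3 correlations of same-numbered residuals above 0.1 (for Dox against NoDox at 24 h they were 0.103, 0.043 and 0.042). This check cannot exclude a weaker link between same-numbered libraries. With a replicate block all 110 calls were as in the fit without it, and the counts of Notch genes called were again 9, 8 and 1 for Dox against NoDox at 12, 24 and 48 h. Depth limits DLL4, with 9 to 33 counts a library.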
